A study of Mus musculus with 12 samples.

Results

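The genes described here are the transferases and sulfotransferases that build and decorate glycans in mouse cardiac endothelium. They were chosen by symbol: every gene of the deposited count table whose symbol starts with Galnt, Hs3st, Hs6st, Ndst, Chst, St3gal, St6gal or B3gnt followed by a digit. The rule found 62 genes among 41214 in the table, 61 of them protein-coding, and 1 a noncoding antisense gene of Galnt6 (Galnt6os). RNA had been sequenced from endocardial and coronary endothelial cells sorted by flow cytometry from embryonic ventricles, with 4 libraries of each population at E13 and 2 of each at E17, 12 in all. The E13 hearts were E13.5 and carried the Nes-gfp transgene, in which nestin regulatory sequences drive green fluorescent protein. The E17 hearts were E17.5 and carried Nes-Gfp, Nes-CreER and a R26 tom reporter allele, and had received 0.1 ug tamoxifen at E15.5. All groups were viable CD31+ cells without Ter119 or CD45. The E13 endocardial gate was GFP-low and Emcn-high, the E13 coronary gate GFP+, and the E17 endocardial gate is given as GFP+. For E17 the series describes 2 coronary gates, both GFP+ and Emcn-low. One is Tomato+ for arteries and capillaries, the other Tomato- and GFP-low for veins, and the labels do not say which gave the 2 libraries. Genotype, tamoxifen, gates and batches therefore change together with stage and cannot be told apart from it. The labels do not say whether libraries of 1 group came from separate litters, so the spread between them may be technical in part.

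Glycans are assembled in the Golgi by enzymes that each add 1 sugar or 1 sulfate. Galnt enzymes start mucin-type O-glycans by placing N-acetylgalactosamine on serine or threonine. B3gnt enzymes add N-acetylglucosamine to galactose and so lengthen lactosamine chains. St3gal and St6gal enzymes cap chains with sialic acid. Ndst enzymes begin heparan sulfate modification, Hs6st enzymes add 6-O-sulfate, and Hs3st enzymes add the late and rare 3-O-sulfate. Chst enzymes sulfate chondroitin, dermatan, keratan and related chains. On endothelium these products form the glycocalyx and bind growth factors, antithrombin and selectins.

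Of the 62 genes, 46 had enough counts to be tested and 16 did not. Galnt9 and Galnt6os had no count in any library. The other untested genes (B3gnt4, B3gnt6, Chst4, Chst5, Chst9, Chst13, Galnt3, Galnt6, Galnt13, Hs3st2, Hs3st5, Hs3st6, Ndst4 and St6gal2) stayed at or under 0.807 counts-per-million (CPM) in every library. The tested genes were 13 of 18 Galnt, 10 of 14 Chst, 6 of 8 B3gnt, 6 of 6 St3gal, 4 of 7 Hs3st, 3 of 4 Ndst, 3 of 3 Hs6st and 1 of 2 St6gal. The library size behind CPM was the total of deposited expected counts scaled by the trimmed mean of M-values. Levels are compared between genes only as CPM per kilobase (kb) of exon. A gene is called higher or lower where edgeR's quasi-likelihood test gave a Benjamini-Hochberg adjusted p below 0.05 over all 15171 genes tested, and errors of fold changes are standard errors.

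Library totals were 14973633 to 27360653 expected counts, with 17818 to 19240 genes detected per library. The 8 pan-endothelial markers summed to at least 5331.4 CPM in every library. The 7 endocardial markers summed to 4772.3 to 6113.5 CPM in the endocardial libraries, to 1183.0, 1299.0, 1579.5 and 1477.8 CPM in E13 coronary replicates 1 to 4, and to 210.2 and 215.8 CPM at E17. The 9 fibroblast markers summed to 1821.7 to 2453.4 CPM in the endocardial libraries, to 2633.5, 5228.4, 6989.6 and 4847.8 CPM in E13 coronary replicates 1 to 4, and to 4812.2 and 2182.8 CPM in the E17 coronary pair. In coronary cells 8 of the 9 fibroblast markers were higher at E13, and 4 were higher and 2 lower at E17. Of the endocardial markers 5 of 7 were lower at E13 and all 7 at E17. Mural markers summed to 178.3 to 271.7 CPM in endocardial libraries, to 384.1, 601.9, 743.0 and 535.3 CPM in E13 coronary replicates 1 to 4 and to 1120.1 and 860.2 CPM in the E17 coronary pair, with 6 of 9 higher in coronary cells at E13 and 8 of 9 at E17. Epicardial markers summed to 14.1 to 21.3 CPM in endocardial, 81.5 to 95.3 in E13 coronary and 144.7 to 157.2 CPM in E17 coronary libraries, with 6 of 8 higher and 1 lower at E13 and 4 higher at E17. Of the 8 pan-endothelial markers, 1 was higher and 6 were lower in coronary cells at E13, and 5 were higher and 2 lower at E17. No marker of these lists was at 0 in a group, and the part of other cell types in the coronary-high genes was not tested. The 8 capillary markers ran the other way among the E13 coronary libraries, from 1661.9 CPM in replicate 1 to 849.3 CPM in replicate 3. Of the 46 tested genes, 14 (30.4%) were highest in E13 coronary replicate 3 and lowest in replicate 1, against 16.1% of all genes tested. In such bulk samples, fewer cells of a type and less RNA per cell cannot be told apart.

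The heparan sulfate 3-O-sulfotransferases Hs3st3a1, Hs3st3b1 and Hs3st4, the sialyltransferase St6gal1 and B3gnt8 were the endocardial side of this group of genes. Hs3st1 was lower in coronary cells only at E17. Several chondroitin and keratan sulfotransferases (Chst11, Chst1 and Chst3) with Galnt16 and Galnt12 were the coronary side. At E13, 18 of the 46 were higher in coronary cells (39.1%, against 30.1% of all genes tested) and 15 were lower (32.6%, against 29.9%). The median log2 difference was 0.12, against -0.02 over all genes. At E17, 18 were higher (39.1%, against 26.5% of all genes) and 19 lower (41.3%, against 26.1%), with a median of -0.15 against -0.01. Differences of at least 2-fold were called in 12 upward and 5 downward at E13, and in 14 upward and 10 downward at E17. The share of all genes at that cut was not worked out, so these counts have no background to compare with.

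**Figure D1:**
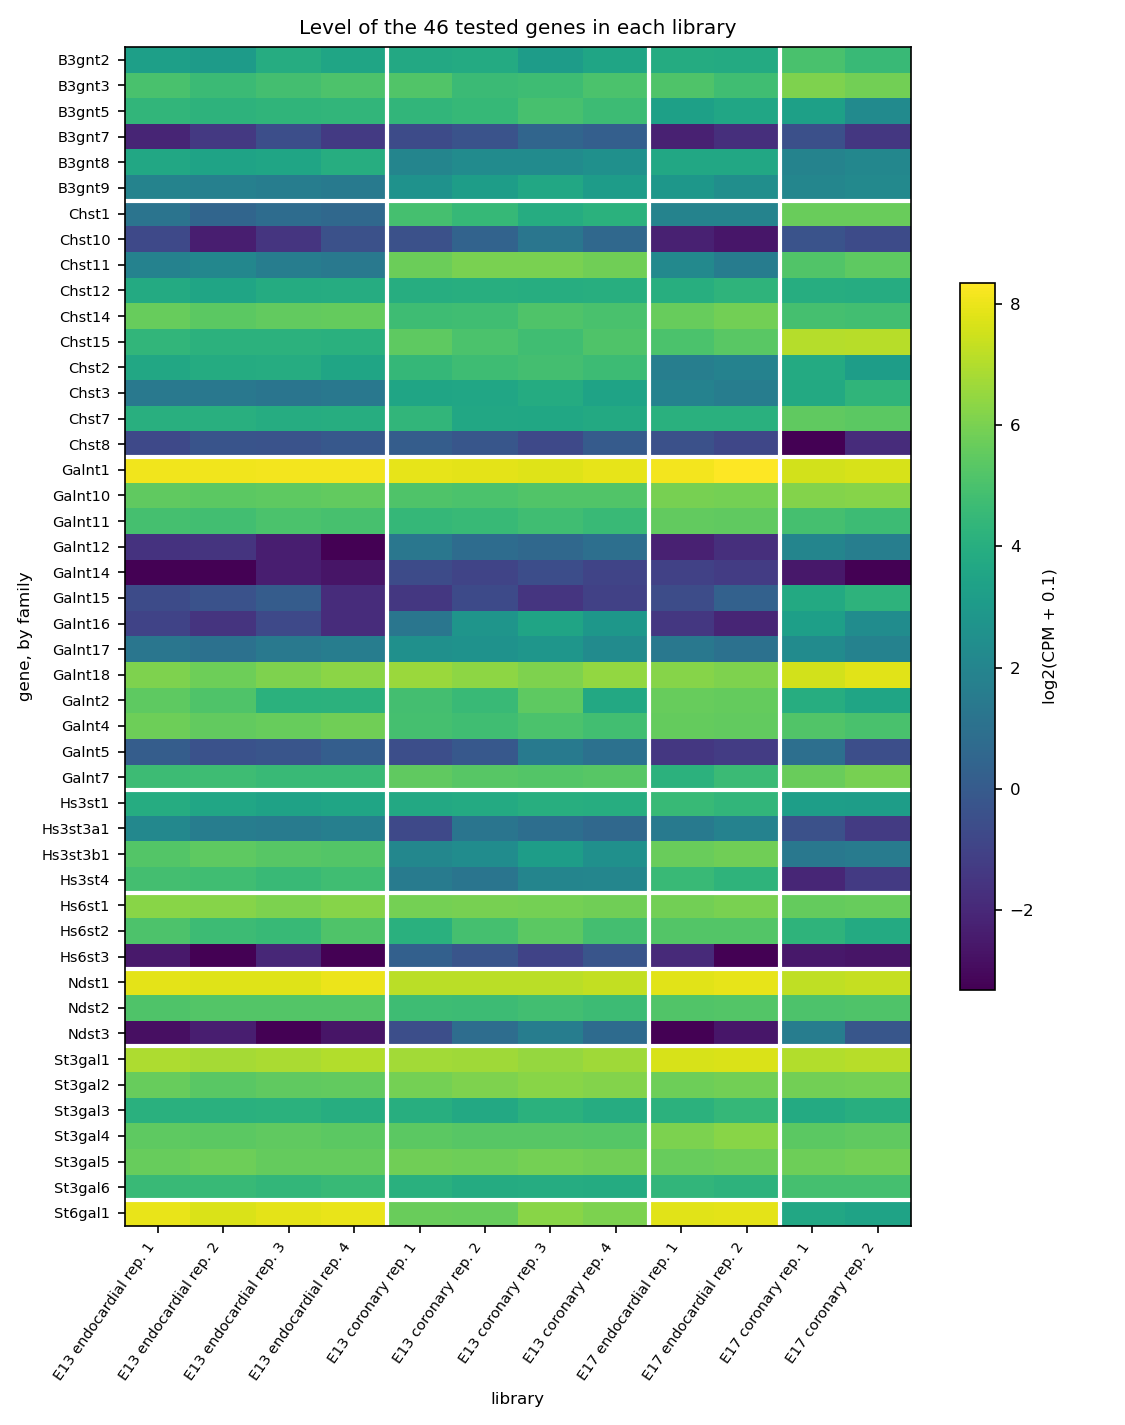
Level of the 46 tested genes (rows, by family) in each of the 12 libraries (columns), as log2 of CPM plus 0.1. Galnt1, Ndst1 and St3gal1 are bright in every library. St6gal1 is brighter in the 6 endocardial than in the 6 coronary libraries, and darkest in the 2 E17 coronary ones.

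**Figure D2:**
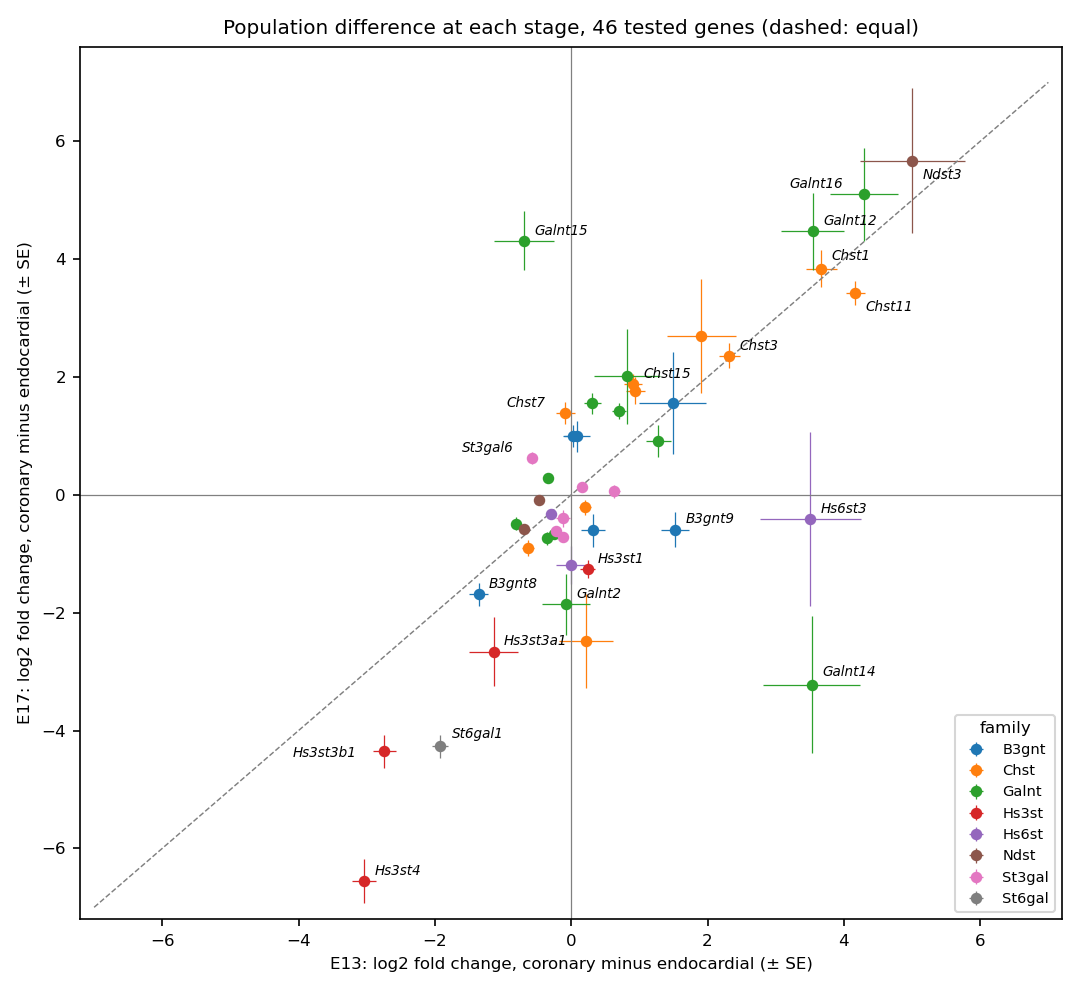
Log2 difference between coronary and endocardial libraries at E13 (horizontal) and at E17 (vertical), with standard errors, for the 46 tested genes, coloured by family. The 3 genes at the lower left are Hs3st4, Hs3st3b1 and St6gal1. Galnt15 lies at -0.70 at E13 and at 4.31 at E17.

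The promoters of 6 genes with large population differences, chosen after their values were seen, are printed so that the 3 endocardial-high genes can be compared with the 3 coronary-high ones. Each is the 250 bases before a start listed in RefSeq (GRCm38.p6), read 5′ to 3′ along the gene. The start taken was the first whose following bases occur in a GENCODE transcript of the gene. Where none did, the first listed start was taken. Capitals mark exact matches, on either strand, to 5 motifs. The GC box of Sp1 and KLF factors was searched as GGGCGG and the box bound by the TATA-binding protein as TATAAA. The motif of the GATA factors was searched as AGATAA. The core of the ETS factors was searched as ACTTCC and the motif of RBPJ as GTGGGAA. No 2 matches overlap.
St6gal1 (chr16:23224490-23224739, plus strand): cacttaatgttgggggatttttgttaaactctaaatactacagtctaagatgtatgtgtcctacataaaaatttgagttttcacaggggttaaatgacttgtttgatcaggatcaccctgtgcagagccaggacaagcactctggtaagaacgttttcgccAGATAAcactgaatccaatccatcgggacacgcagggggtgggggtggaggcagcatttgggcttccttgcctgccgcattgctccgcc
Hs3st4 (chr7:123982578-123982827, plus strand): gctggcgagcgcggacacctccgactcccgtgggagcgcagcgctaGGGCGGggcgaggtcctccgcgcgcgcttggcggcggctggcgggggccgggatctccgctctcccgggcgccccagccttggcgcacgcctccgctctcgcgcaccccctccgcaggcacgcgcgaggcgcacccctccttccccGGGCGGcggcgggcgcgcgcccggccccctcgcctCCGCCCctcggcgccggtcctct
Hs3st3b1 (chr11:63922285-63922534, minus strand): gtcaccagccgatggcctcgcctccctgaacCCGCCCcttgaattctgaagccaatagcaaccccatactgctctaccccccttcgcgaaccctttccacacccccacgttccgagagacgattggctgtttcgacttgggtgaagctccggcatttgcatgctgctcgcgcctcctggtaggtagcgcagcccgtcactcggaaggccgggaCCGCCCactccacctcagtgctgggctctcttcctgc
Chst11 (chr10:82985247-82985496, plus strand): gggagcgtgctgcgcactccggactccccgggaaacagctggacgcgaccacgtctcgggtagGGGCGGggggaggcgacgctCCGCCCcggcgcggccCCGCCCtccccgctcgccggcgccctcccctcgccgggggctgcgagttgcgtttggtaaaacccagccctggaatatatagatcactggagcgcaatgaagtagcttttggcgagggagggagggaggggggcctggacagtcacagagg
Chst1 (chr2:92600867-92601116, plus strand): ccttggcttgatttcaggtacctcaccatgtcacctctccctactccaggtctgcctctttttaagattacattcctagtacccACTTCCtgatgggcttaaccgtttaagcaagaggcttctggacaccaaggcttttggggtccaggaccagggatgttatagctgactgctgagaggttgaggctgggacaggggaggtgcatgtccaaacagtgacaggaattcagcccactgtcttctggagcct
Galnt15 (chr14:32028853-32029102, plus strand): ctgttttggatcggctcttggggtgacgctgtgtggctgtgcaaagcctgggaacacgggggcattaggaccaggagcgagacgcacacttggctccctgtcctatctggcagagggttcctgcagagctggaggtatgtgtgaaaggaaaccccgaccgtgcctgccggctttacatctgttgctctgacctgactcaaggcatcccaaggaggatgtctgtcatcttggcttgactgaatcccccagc

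The endocardial-high St6gal1 held 1 GATA match, 89 to 84 bases before the start taken, which is 1 of 3 that RefSeq lists. Hs3st4 and Hs3st3b1 held 3 and 2 GC boxes. Among the coronary-high genes Chst11 held 3 GC boxes, Chst1 held 1 ETS core and Galnt15 held no match. Neither the endocardial-high nor the coronary-high set shared 1 motif across all its members. GC content ran from 47.2% in St6gal1 to 82.0% in Hs3st4. Of all 32851 RefSeq promoters of this length, 32.7% held the GC box, 12.4% the TATA box, 9.99% the GATA motif, 19.7% the ETS core and 5.42% the RBPJ motif. Of 60 promoters listed for 49 of the 62 genes, 60.0% held the GC box and 1 (1.67%) the TATA box. Of these 60, 5.0% held the GATA motif, 16.7% the ETS core and 3.33% the RBPJ motif. Their median GC content was 64.2%, against 52.4% over all promoters. For Hs3st4 and Chst1 the bases after the RefSeq start were not found in a GENCODE transcript of the gene, so the start in these cells is uncertain. The Chst1 stretch, with its ETS match, lies inside the gene as GENCODE places it, from chr2:92599707. Part of the Galnt15 stretch lies past the GENCODE start of that gene, chr14:32028989. The motif matches describe letters and were not tested as sites.

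St6gal1, which caps N-glycans with 6-linked sialic acid, was high in every endocardial library and lower in every coronary one. At E13 it stood at 246.6, 207.7, 234.2 and 246.8 CPM in the endocardial replicates and at 52.0, 50.5, 76.9 and 65.3 CPM in the coronary ones. The E17 endocardial libraries held 229.3 and 233.5 CPM and the E17 coronary libraries 12.9 and 11 CPM. The populations did not overlap at either stage. The log2 difference was -1.93 ± 0.12 at E13 (3.82-fold, adjusted p = 6.03e-08) and -4.27 ± 0.20 at E17 (19.3-fold, adjusted p = 7.34e-09). The difference between the stages was -2.34 ± 0.22 (adjusted p = 9.92e-06). Endocardial libraries showed a stage difference of -0.01 ± 0.14 (adjusted p = 0.952), while coronary libraries fell by 2.35 ± 0.18. Within batches, the coronary to endocardial ratio was 0.211 to 0.328 at E13, and 0.0564 and 0.0471 at E17. Per kb, St6gal1 stood at 47.6 ± 3.74 CPM in E13 endocardial cells (SD, n = 4), close to Galnt1 at 50.9 ± 0.73. Among the E13 coronary libraries St6gal1 was highest in replicates 3 and 4, as were the endocardial markers, whose part in the level was not tested. Its paralog St6gal2 was not tested and reached 0.807 CPM in E13 coronary replicate 3.

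The Hs3st genes lay on the endocardial side, and none of the 4 tested was higher in coronary cells at either stage. At E13, 3 of 4 were lower (Hs3st3a1, Hs3st3b1 and Hs3st4), with a family median of -1.94. At E17 all 4 were lower (median -3.5). Of all genes tested, 29.9% were lower at E13 and 26.1% at E17. Hs3st4, whose enzyme is best known from neurons, held 29.2, 26.9, 23.9 and 26.9 CPM in E13 endocardial and 2.82, 2.21, 3.93 and 4.05 CPM in E13 coronary libraries. It held 23.7 and 19.2 CPM in E17 endocardial and 0.137 and 0.301 CPM in E17 coronary libraries. Every coronary library was below every endocardial one, and the E17 coronary level rests on 7 counts against 731. The log2 difference was -3.04 ± 0.17 at E13 (adjusted p = 3.25e-08) and -6.55 ± 0.37 at E17 (adjusted p = 3.86e-08). The E17 CPM ratio was 96.1, with a 95% exact counting interval of 46.4 to 240.0. The stage difference of the population effect was -3.50 ± 0.47 (adjusted p = 0.000134).

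Hs3st3b1, which makes the 3-O-sulfated sites bound by herpes simplex glycoprotein D, was likewise lower in both coronary groups. It stood at 37.7, 43.2, 40.3 and 37.7 CPM in E13 endocardial libraries and at 4.16, 5.03, 8.9 and 5.67 CPM in E13 coronary ones. At E17 it stood at 51.3 and 57.4 CPM in endocardial and at 2.43 and 2.81 CPM in coronary libraries. No coronary library reached an endocardial one, and coronary replicate 3 was the highest of its group at E13. Among the E13 coronary libraries both Hs3st3b1 and Hs3st4 were highest in replicates 3 and 4. So were the endocardial markers, whose part in these levels was not tested. The log2 difference of Hs3st3b1 was -2.74 ± 0.17 at E13 (adjusted p = 6.28e-08) and -4.35 ± 0.28 at E17 (adjusted p = 9.02e-08), with a stage difference of -1.61 ± 0.33 (adjusted p = 0.00259). Its close paralog Hs3st3a1 was lower by -1.14 ± 0.36 at E13 and -2.66 ± 0.59 at E17, from at most 4.23 CPM in any library. Of all 50-base stretches in Hs3st3a1 transcripts, 42.8% also occur in another gene's transcripts. Of all its stretches 32.1% occur in F930015N05Rik, on the opposite strand, and 8.56% of those of Hs3st3b1 occur in Hs3st3a1. All deposited values of both paralogs were fractional. The low values of Hs3st3a1 are therefore uncertain, and the part of Hs3st3b1 reads in them was not tested.

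Hs3st1, the enzyme of the antithrombin-binding site, differed from its relatives. It held 14.9, 11.9, 10.6 and 11.7 CPM in E13 endocardial libraries, 13, 14.2, 15.8 and 15.3 in E13 coronary, 23.3 and 20.5 CPM in E17 endocardial, and 9.33 and 8.98 CPM in E17 coronary libraries. The E13 groups overlapped and the E17 groups did not. The E13 difference was 0.24 ± 0.11 (adjusted p = 0.0713), which passed as higher without E13 endocardial replicate 1 (0.35, adjusted p = 0.00845) or E13 coronary replicate 1 (0.32, adjusted p = 0.0254). At E17 the difference was -1.26 ± 0.16 (adjusted p = 2.94e-05). Hs3st1 rose by 0.83 ± 0.13 with stage in endocardial libraries and fell by 0.67 ± 0.14 in coronary ones, and the population effect changed by -1.50 ± 0.19 (adjusted p = 9.88e-05). The summed family level per kb was 22.9 ± 1.5 CPM in E13 endocardial, 9.28 ± 1.27 in E13 coronary (SD, n = 4 each), 28.4 ± 0.88 in E17 endocardial and 4.83 ± 0.080 in E17 coronary cells (SD, n = 2 each). Hs3st4 and Hs3st3b1 made up 36.6% and 35.4% of it in E13 endocardial cells. Hs3st1 made up 70.4% of the coronary sum at E13 and 85.0% at E17.

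**Figure D3:**
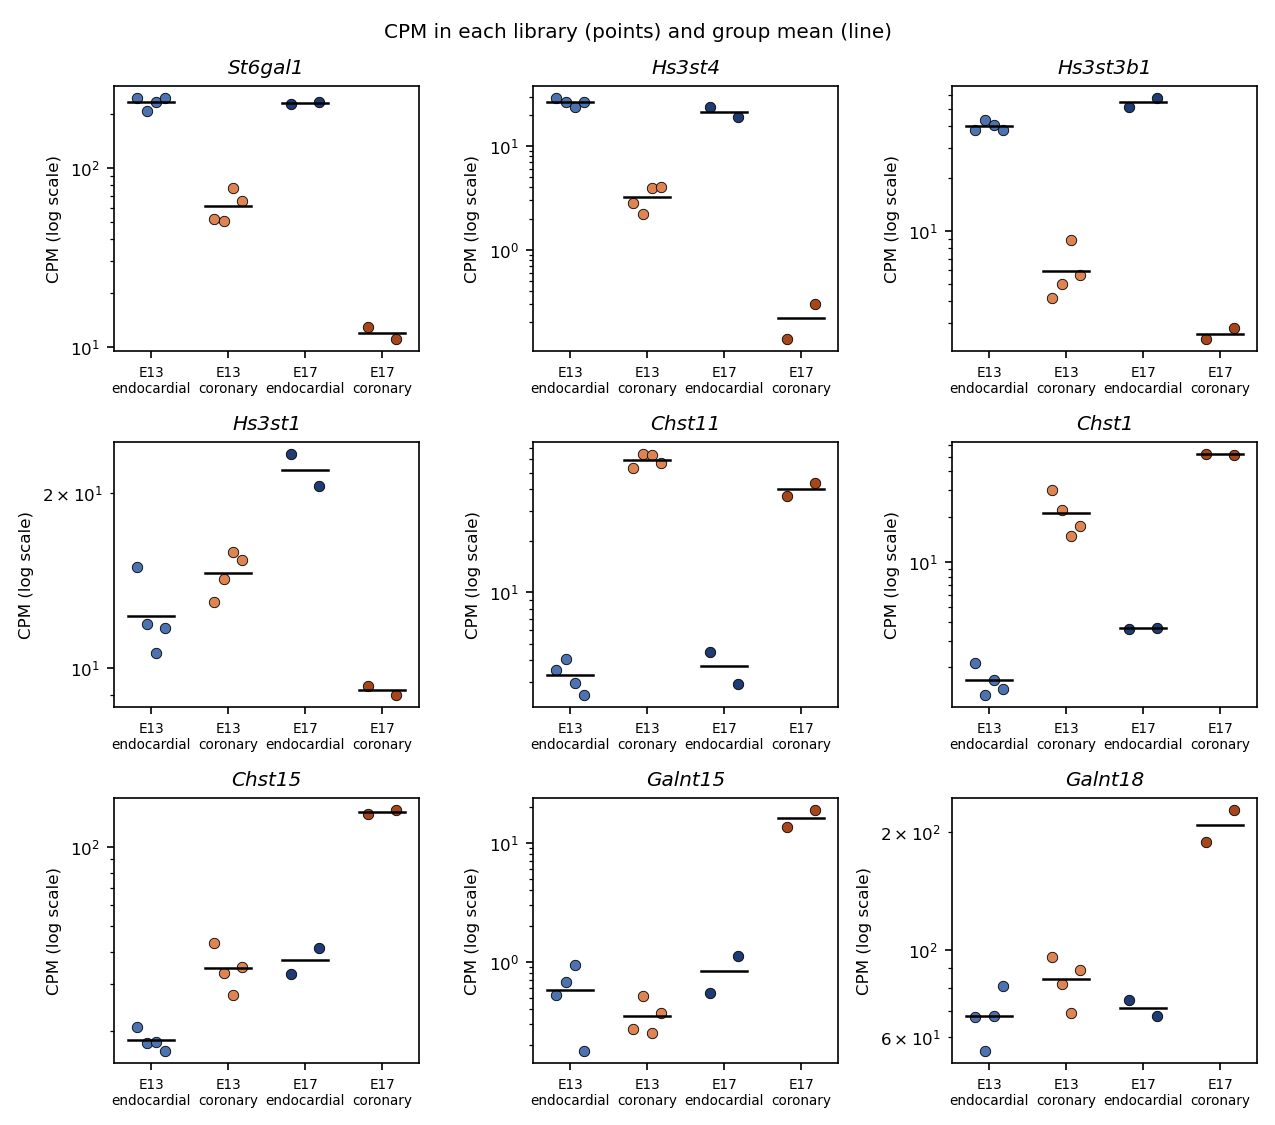
CPM on a log axis in each library (points) with the group mean (line) for 9 genes. Points of the coronary groups lie below both endocardial groups for St6gal1, Hs3st4 and Hs3st3b1 and above them for Chst11 and Chst1. For Galnt15 only the 2 E17 coronary points, at 13.6 and 18.8 CPM, stand apart.

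Of the Ndst genes, whose enzymes act earlier on heparan sulfate, 2 of 3 were lower in coronary cells at E13 and 1 at E17. Ndst3 was higher at both stages. The shares of all genes tested were 29.9% lower and 30.1% higher at E13, and 26.1% and 26.5% at E17. Ndst1, which removes acetyl groups and adds N-sulfate, held 221.0 to 258.6 CPM in E13 endocardial (median of 4 libraries 227.4), 139.7, 143.1, 142.3 and 153.4 in E13 coronary, 226.0 and 239.7 CPM in E17 endocardial and 151.4 and 159.5 CPM in E17 coronary libraries. All 6 coronary libraries were below all 6 endocardial ones. The log2 difference was -0.69 ± 0.06 at E13 (adjusted p = 5.97e-07) and -0.58 ± 0.08 at E17 (adjusted p = 5.73e-05). Ndst2, with the same activity, was lower in coronary cells at E13 (-0.48 ± 0.05, adjusted p = 2.18e-06) and differed by -0.09 ± 0.06 at E17 (adjusted p = 0.268), a stage difference of 0.39 ± 0.08 (adjusted p = 0.00251). Ndst3 was nearly absent from endocardial libraries, with 4 counts against 140 in coronary libraries at E13 and 1 against 56 at E17. Its CPM ratio was 39.8 (95% exact counting interval 15.2 to 147.9) at E13 and 60.8 (10.5 to 2444.9) at E17, and it was called higher at both. Ndst3 was 5.08 times as high in E13 coronary replicate 3 as in replicate 1. The fibroblast and mural markers had that order. So had 6 neural crest and glial markers, which summed to 14.9 CPM in replicate 1 and 48.1 CPM in replicate 3. The part of these cell types in the Ndst3 level was not tested. The summed Ndst level per kb was 36.4 ± 2.16 CPM in E13 endocardial and 23.5 ± 0.71 in E13 coronary cells (SD, n = 4 each).

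Hs6st1, the most abundant 6-O-sulfotransferase, held 66.8 to 77.5 CPM in E13 endocardial, 57.1 to 62.2 in E13 coronary, 59.0 and 64.5 in E17 endocardial and 48.6 and 50.4 CPM in E17 coronary libraries. It was lower in coronary cells at E13 (-0.29 ± 0.05, adjusted p = 0.000496) and at E17 (-0.32 ± 0.08, adjusted p = 0.00424). Hs6st2 overlapped between the E13 groups, at 34.4, 25.3, 23.6 and 35.0 against 17, 29.7, 42.2 and 29.0 CPM. At E17 it held 37.5 and 37.4 CPM in endocardial and 19.1 and 13.8 CPM in coronary libraries, a difference of -1.19 ± 0.33 (adjusted p = 0.00943). That call was lost without E17 coronary replicate 2 (-0.97, adjusted p = 0.0848). Its stage difference of -1.19 ± 0.40 passed (adjusted p = 0.0388), but not with the batch as a block (adjusted p = 0.0748). It was also lost on 7 of 12 single-library omissions (adjusted p up to 0.171, without E17 coronary replicate 2), and kept without E13 endocardial replicate 1 or 4, E13 coronary replicate 1 or 3 or E17 coronary replicate 1. Hs6st3 was higher in E13 coronary libraries, from 59 counts against 5, and stayed at or under 1.08 CPM in every library.

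The Chst family was the counterpart of Hs3st, with 6 of 10 tested genes higher and 1 lower in coronary cells at E13 (median 0.92). At E17, 7 were higher and 2 lower (median 1.82). Of all genes tested, 30.1% were higher and 29.9% lower at E13, and 26.5% and 26.1% at E17. Chst11, which adds the 4-O-sulfate of chondroitin, held 3.53, 4.08, 2.95 and 2.5 CPM in E13 endocardial and 53.5, 64.4, 63.4 and 57.1 CPM in E13 coronary libraries. It held 4.47 and 2.92 CPM in E17 endocardial and 36.7 and 43.8 CPM in E17 coronary libraries. The groups were far apart at both stages, with 18-fold (log2 4.17 ± 0.14, adjusted p = 1.45e-09) at E13 and 10.8-fold (3.43 ± 0.20, adjusted p = 5.71e-08) at E17. The difference between stages of -0.74 ± 0.26 (adjusted p = 0.0432) did not pass with the batch block (0.0611). It was lost on 8 of 12 single-library omissions (adjusted p up to 0.403, at -0.39, without E17 endocardial replicate 1), and kept without E13 endocardial replicate 2, E13 coronary replicate 1, E17 endocardial replicate 2 or E17 coronary replicate 2. Chst11 fell by 0.57 ± 0.14 with stage in coronary libraries (adjusted p = 0.00597), and without E17 coronary replicate 1 that call was lost (adjusted p = 0.0773).

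Chst1, the keratan sulfate galactose sulfotransferase, held 2.14, 1.3, 1.65 and 1.43 CPM in E13 endocardial and 30.2, 22.3, 14.8 and 17.3 CPM in E13 coronary libraries. At E17 it held 3.6 and 3.63 CPM against 52.1 and 51.6 CPM. Coronary libraries were higher throughout, by 3.67 ± 0.23 at E13 (12.7-fold, adjusted p = 7.7e-08) and 3.84 ± 0.31 at E17 (14.3-fold, adjusted p = 6.92e-07). Within the E13 coronary group, replicate 1 had the most Chst1 and replicate 3 the least, which was also the order of the capillary markers. It rose with stage in coronary libraries by 1.3 ± 0.22 (adjusted p = 0.000341). The endocardial rise of 1.12 ± 0.31 (adjusted p = 0.016) was lost without either E17 endocardial library (0.0876 and 0.0781).

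Chst3, a chondroitin 6-O-sulfotransferase, held 2.26 to 2.5 CPM in E13 endocardial, 11 to 14.5 in E13 coronary, 3.55 and 2.98 in E17 endocardial and 13.6 and 20.0 CPM in E17 coronary libraries. It was higher in coronary cells by 2.32 ± 0.15 at E13 (adjusted p = 7.55e-08) and by 2.36 ± 0.21 at E17 (adjusted p = 1.38e-06). Its coronary rise with stage, 0.46 ± 0.16 (adjusted p = 0.0302), did not pass without E17 coronary replicate 2 (0.15, adjusted p = 0.548), nor without E13 coronary replicates 1, 2 or 4 (0.064 to 0.0811). Chst15, which adds the second sulfate of chondroitin sulfate E, stood at 16.7 to 20.7, 27.3 to 43.3, 32.9 and 41.3, and 134.0 and 138.4 CPM in the E13 endocardial, E13 coronary, E17 endocardial and E17 coronary libraries. The coronary excess was 0.91 ± 0.13 at E13 (adjusted p = 5.29e-05) and 1.88 ± 0.17 at E17 (adjusted p = 2e-06), a change of 0.97 ± 0.21 (adjusted p = 0.00381). Chst15 rose with stage in both populations, by 1.00 ± 0.15 in endocardial and 1.98 ± 0.14 in coronary libraries.

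Chst7, a sulfotransferase of chondroitin and N-acetylglucosamine, was level at E13 and coronary-high at E17. It held 14.7 to 16.4 CPM in E13 endocardial, 21, 13, 12 and 14 (rounded to whole CPM) in E13 coronary, 17.1 and 16.7 in E17 endocardial and 45.7 and 42.6 CPM in E17 coronary libraries. The E13 difference was -0.09 ± 0.14 (adjusted p = 0.614), and without E13 coronary replicate 1 it was -0.26 (adjusted p = 0.00537). At E17 it was 1.39 ± 0.19 (adjusted p = 7.08e-05), and the effect changed by 1.47 ± 0.24 (adjusted p = 0.000535). Chst2, an N-acetylglucosamine 6-O-sulfotransferase, held 11.6 to 14.7, 21.8 to 29.0, 3.11 and 3.57, and 14.0 and 8.81 CPM in the same order of groups. It fell with stage in both populations, by 2.01 ± 0.21 in endocardial and 1.18 ± 0.18 in coronary libraries, and was higher in coronary cells at E13 (0.94 ± 0.14) and E17 (1.77 ± 0.23). The change of 0.82 ± 0.27 between stages (adjusted p = 0.0332) was lost on 7 of 12 single-library omissions (adjusted p up to 0.207, at 0.45, without E17 coronary replicate 1), and kept without E13 endocardial replicate 1 or 4, E13 coronary replicate 1 or 3 or E17 coronary replicate 2.

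Chst14, which sulfates dermatan, was the exception among abundant Chst genes. It held 42.3 to 49.2 CPM in E13 endocardial, 26.8, 27.0, 34.9 and 32.1 in E13 coronary, 50 and 59 in E17 endocardial and 30.1 and 28.2 CPM in E17 coronary libraries. It was lower in coronary cells by -0.63 ± 0.09 (adjusted p = 7.62e-05) and -0.90 ± 0.13 (adjusted p = 9.6e-05). Chst12, another chondroitin 4-O-sulfotransferase, did not pass between populations, at 0.20 ± 0.09 and -0.21 ± 0.13. Chst10, of the HNK-1 epitope, was called higher at both stages from at most 2.32 CPM, and its E17 call rests on 19 counts against 3 (ratio 6.88, 95% exact counting interval 2.03 to 36.3). That call was lost with the batch block (adjusted p = 0.0596) and without any 1 of the 4 E17 libraries (0.0659 to 0.136). The E17 call of Chst8 as lower, from 3 counts against 19, was lost with the block (0.0572) and without E17 coronary replicate 1 (0.1) or E17 endocardial replicate 1 (0.0949). The summed Chst level per kb was 41.5 ± 1.95 and 57.3 ± 2.57 CPM at E13 in endocardial and coronary cells (SD, n = 4 each) and 49.8 ± 4.61 and 91.4 ± 0.47 CPM at E17 (SD, n = 2 each). Chst14 made up 53.8% of it in E13 endocardial cells, whereas Chst15, Chst7 and Chst1 made up 22.1%, 21.9% and 21.2% in E17 coronary cells.

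**Figure D4:**
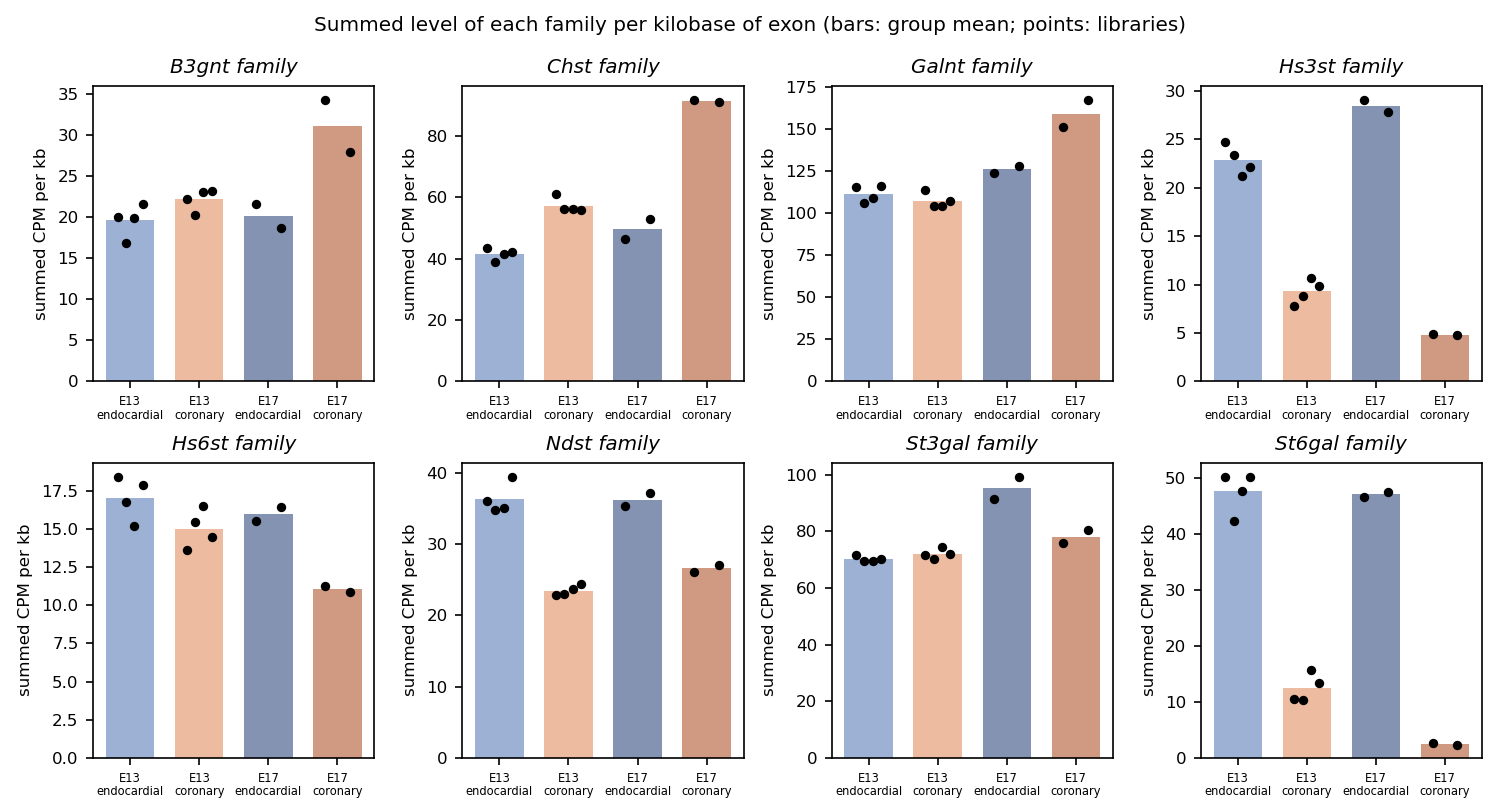
Summed CPM per kb of exon over all genes of each of the 8 families, as group means (bars) and libraries (points), with each axis from 0. Hs3st and St6gal bars are lowest in E17 coronary cells, at 4.83 and 2.43, and the Chst and Galnt bars are highest there, at 91.4 and 159.1. Galnt2 and B3gnt2 are counted by their own rows only.

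Galnt genes went both ways. At E13, 6 of 13 tested were higher in coronary cells (Galnt7, Galnt12, Galnt14, Galnt16, Galnt17 and Galnt18) and 4 lower (Galnt1, Galnt4, Galnt10 and Galnt11). These are 46.2% and 30.8%, against 30.1% and 29.9% of all genes tested. At E17, 7 were higher and 5 lower (53.8% and 38.5%, against 26.5% and 26.1% of all genes). Galnt1, a broadly expressed initiating enzyme, held 276.3 to 285.3 CPM in E13 endocardial, 220.2 to 242.9 in E13 coronary, 288.4 and 327.3 in E17 endocardial and 190.2 and 199.2 CPM in E17 coronary libraries. It was lower in coronary cells by -0.26 ± 0.05 at E13 (adjusted p = 0.000495) and -0.66 ± 0.07 at E17 (adjusted p = 6.16e-06), without overlap. Galnt18, of a subfamily with little activity measured in vitro, held 67.5, 55.1, 68.0 and 81.0 CPM in E13 endocardial, 96.2, 82.0, 69.2 and 89.0 in E13 coronary, 74.6 and 67.7 in E17 endocardial and 189.3 and 227.9 CPM in E17 coronary libraries. The E13 groups overlapped. The E13 call (0.31 ± 0.12, adjusted p = 0.0408) was lost on leaving out E13 coronary replicate 1 or 4 or E13 endocardial replicate 1, 2 or 3 (0.0676 to 0.116), and reached 0.05 without E17 endocardial replicate 2. At E17 the excess was 1.55 ± 0.17 (adjusted p = 1e-05), a change of 1.24 ± 0.21 (adjusted p = 0.000689). Per kb, and with Galnt2 counted by its own row only, Galnt18 made up 50.9% of the family in E17 coronary cells and Galnt1 22.2%. Counted in that way, Galnt1 led with 45.6% in E13 endocardial cells.

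Galnt15 gave the largest stage change in coronary cells of the 46 genes. It held 0.527, 0.672, 0.951 and 0.178 CPM in E13 endocardial, 0.271, 0.518, 0.252 and 0.371 in E13 coronary, 0.547 and 1.12 in E17 endocardial and 13.6 and 18.8 CPM in E17 coronary libraries. Only the E17 coronary pair was above 2 CPM. The E13 difference was -0.70 ± 0.44 (adjusted p = 0.181), which passed as lower without E13 endocardial replicate 4 (-0.96, adjusted p = 0.0405). At E17 it was 4.31 ± 0.50 (adjusted p = 1.52e-05), and coronary libraries rose with stage by 5.47 ± 0.41 (adjusted p = 6.09e-07). Galnt16 was higher in coronary cells at both stages, with 0.413, 0.24, 0.5 and 0.178 against 2.33, 6.8, 11.1 and 7.09 CPM at E13 and 0.273 and 0.13 against 9.67 and 4.97 CPM at E17. The differences were 4.30 ± 0.50 (adjusted p = 1.25e-05) and 5.10 ± 0.79 (adjusted p = 0.000159). Galnt16 was 4.79 times as high in E13 coronary replicate 3 as in replicate 1 and higher in the first E17 coronary library. The summed fibroblast markers had that order at both stages, as had the mural markers and the neural crest and glial markers. The part of these cell types in the level was not tested. Galnt12 reached 3.84 CPM and was higher in coronary cells at both stages (3.54 ± 0.46 and 4.47 ± 0.66).

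Galnt7 and Galnt10 prefer peptides that already carry a sugar. Galnt7 held 23.7 to 26.4 CPM in E13 endocardial, 36.9 to 45.8 in E13 coronary, 18.1 and 24.6 in E17 endocardial and 51.6 and 62.2 CPM in E17 coronary libraries. It was higher in coronary cells by 0.70 ± 0.10 at E13 and 1.42 ± 0.14 at E17, and its coronary rise of 0.49 ± 0.12 (adjusted p = 0.00379) was lost without E17 coronary replicate 2 (0.35, adjusted p = 0.0809). Galnt10 held 43.0 to 46.8, 33.2 to 36.7, 61.6 and 60.2, and 72.8 and 74.6 CPM in the same groups. Galnt10 changed sides: it was lower in coronary cells at E13 (-0.34 ± 0.05, adjusted p = 4.05e-05), higher at E17 (0.28 ± 0.06, adjusted p = 0.003), and the change of 0.62 ± 0.08 passed (adjusted p = 9.65e-05). Galnt17 was higher in coronary libraries, at 4.8 to 7.03 against 1.97 to 2.98 CPM at E13 (1.28 ± 0.18, adjusted p = 6.13e-05). At E17 it held 4.8 and 3.53 against 2.46 and 1.95 CPM (0.91 ± 0.27, adjusted p = 0.0119), a call lost without E17 coronary replicate 1 (adjusted p = 0.0908) or E17 endocardial replicate 2 (0.0824). Galnt4 and Galnt11 were lower in coronary cells at both stages, by -0.81 ± 0.08 and -0.49 ± 0.11 for Galnt4 and by -0.35 ± 0.07 and -0.74 ± 0.11 for Galnt11. Galnt14 was higher in coronary libraries at E13 (39 counts against 3) and lower at E17 (1 against 12), and the E17 call was lost with the batch block (adjusted p = 0.0758) and without E17 coronary replicate 2 (0.185) or either E17 endocardial library (0.0986 and 0.0624). Galnt5, at most 2.67 CPM, did not pass at E13 (0.82 ± 0.48, adjusted p = 0.155) or at E17 (2.01 ± 0.80, adjusted p = 0.0511). It passed at E13 without E13 coronary replicate 1 (0.0456), and at E17 without E13 coronary replicate 1, 2 or 3 or E17 coronary replicate 2 (0.0238 to 0.0461).

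Galnt2, a major initiating enzyme, could not be read from its own row. In GENCODE vM21 it lies at chr8:124231391-124345724 (GRCm38), and 90.0% of its exon bases are shared with Gm20388, a read-through gene on the same strand. Of the summed reads of the pair, between 6.6% and 22.6% per library were assigned to Galnt2 and the rest to Gm20388. Rounded to whole CPM, Galnt2 alone held 44, 36, 18 and 18 in E13 endocardial and 29, 24, 44 and 13 in E13 coronary libraries, a range of more than 3-fold with the groups interleaved. The sum of both rows ran from 237.5 to 261.7 CPM in E13 endocardial, 185.1 to 198.9 in E13 coronary, 247.2 and 244.2 in E17 endocardial and 121.9 and 134.9 CPM in E17 coronary libraries. On the sum, a test added after the data were seen, coronary cells were lower at E13 by -0.35 ± 0.05 (adjusted p = 3.54e-05), against -0.08 ± 0.35 (adjusted p = 0.86) on Galnt2 alone. At E17 the sum gave -0.94 ± 0.07 (adjusted p = 2.63e-07) and Galnt2 alone -1.86 ± 0.52 (adjusted p = 0.00985), which was lost without E17 coronary replicate 2 (adjusted p = 0.0746). The stage difference of the population effect was -0.58 ± 0.08 on the sum (adjusted p = 0.000195). Spread over the exon length of Galnt2, the sum was 58.0 ± 2.56 CPM per kb in E13 endocardial cells (SD, n = 4), above the 50.9 ± 0.73 of Galnt1. The family sums and shares above count only the Galnt2 row.

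**Figure D5:**
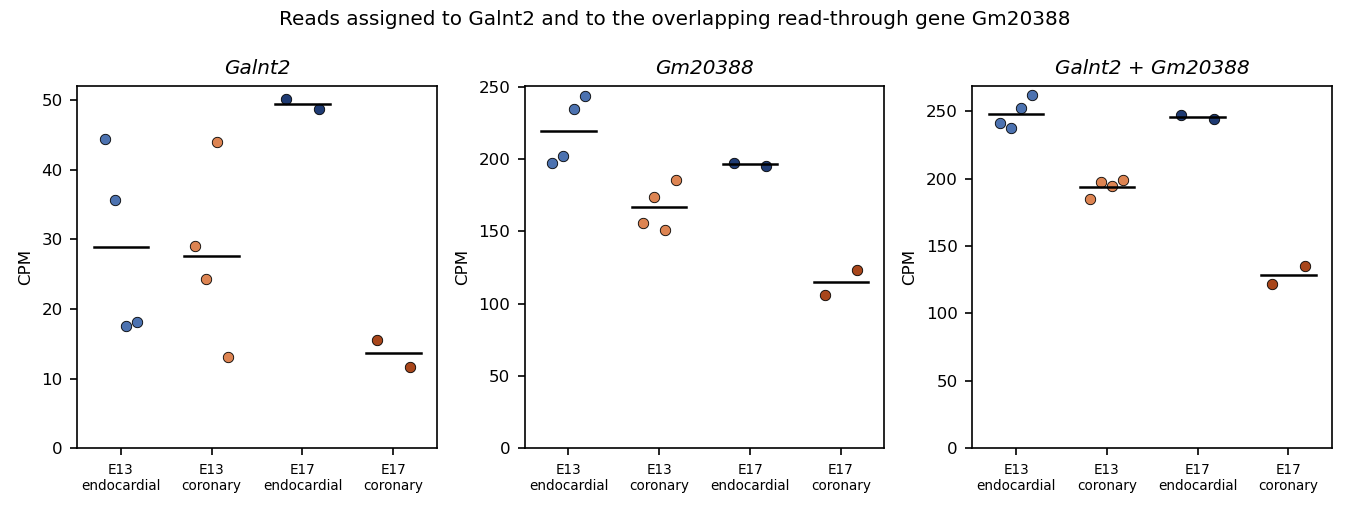
CPM of Galnt2, of the overlapping read-through gene Gm20388 and of their sum in each library (points) with group means (lines), axes from 0. Galnt2 alone scatters from 13.1 to 44.4 CPM over the E13 libraries, whereas the summed points separate the E13 groups (185.1 to 198.9 against 237.5 to 261.7).

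Among the B3gnt enzymes, B3gnt3, which extends core 1 O-glycans, was the most abundant per kb where B3gnt2 was counted by its own row only. It held 24.5 to 34.2 CPM in E13 endocardial, 24.9 to 36.6 in E13 coronary, 34.9 and 27.6 in E17 endocardial and 68.1 and 57.6 CPM in E17 coronary libraries. The 3 lower groups overlapped. The coronary excess was 0.02 ± 0.14 at E13 (adjusted p = 0.89) and 1.00 ± 0.19 at E17 (adjusted p = 0.000903), a change of 0.98 ± 0.24 (adjusted p = 0.00779). B3gnt2, the main synthase of long lactosamine chains, shares 58.6% of its exon bases with the read-through gene Gm28048. Its own row held 8.48 to 15.1, 8.58 to 13.8, 14.5 and 13.8, and 32.4 and 23.8 CPM in the 4 groups. The E17 excess was 0.99 ± 0.26 (adjusted p = 0.00726) and was lost without E17 coronary replicate 1 (0.77, adjusted p = 0.0608). With the reads of Gm28048 added, the excess was 0.40 ± 0.10 at E13 (adjusted p = 0.00526) and 1.15 ± 0.15 at E17 (adjusted p = 3.11e-05). The stage difference of B3gnt2 alone, 0.91 ± 0.32 (adjusted p = 0.0486), did not pass with the batch block (0.0956). It was lost on 7 of 12 single-library omissions (adjusted p up to 0.194, at 0.67, without E17 coronary replicate 1), and kept without E13 endocardial or coronary replicate 1 or 2 or E17 coronary replicate 2. On the sum it was 0.75 ± 0.18 (adjusted p = 0.0063).

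B3gnt8, which forms a complex with B3gnt2, ran against it. It held 10.8 to 15.2 CPM in E13 endocardial, 3.89 to 5.71 in E13 coronary, 12.7 and 12.6 in E17 endocardial and 3.63 and 4.19 CPM in E17 coronary libraries, with differences of -1.36 ± 0.14 (adjusted p = 3.74e-06) and -1.69 ± 0.20 (adjusted p = 1.99e-05). B3gnt9 was higher in coronary libraries at E13, at 6.04, 8.86, 12.7 and 8.56 against 2.6 to 3.61 CPM (1.52 ± 0.21, adjusted p = 4.57e-05). At E17 it stood at 4.04 and 4.4 against 7.23 and 5.43 CPM (-0.59 ± 0.30, adjusted p = 0.115), and the effect changed by -2.11 ± 0.36 (adjusted p = 0.000819). Its endocardial rise with stage (1.01 ± 0.25, adjusted p = 0.00831) was lost without E17 endocardial replicate 1 (0.79, adjusted p = 0.113). In E13 coronary replicate 3 B3gnt9 was 2.11 times as high as in replicate 1. B3gnt5, which starts lacto-series glycolipids, fell with stage in both populations. It held 18.8 to 20.7 CPM in E13 endocardial, 20.2 to 31.1 in E13 coronary, 9.88 and 11.8 in E17 endocardial and 9.74 and 4.67 CPM in E17 coronary libraries. The falls were 0.88 ± 0.23 in endocardial cells (adjusted p = 0.0114, lost at 0.116 without E17 endocardial replicate 1) and 1.79 ± 0.24 in coronary cells (adjusted p = 7.18e-05). Its E13 difference, 0.32 ± 0.17 (adjusted p = 0.135), passed without E13 coronary replicate 1 (0.046) or either E17 coronary library (0.032 and 0.0397). The E17 difference, -0.60 ± 0.28 (adjusted p = 0.0884), passed without E17 coronary replicate 1 (-1.19, adjusted p = 0.00285). The stage difference of -0.91 ± 0.33 (adjusted p = 0.0491) did not pass with the batch block (0.0609), and was kept on single omissions only without E13 or E17 coronary replicate 1 (lost on 10 of 12, adjusted p up to 0.232, at -0.47, without E17 coronary replicate 2). B3gnt7, at most 1.31 CPM, was higher in coronary cells at E13 only by a call that 2 single omissions removed, E13 coronary replicate 3 (adjusted p = 0.0586) and E13 endocardial replicate 1 (0.0537).

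The 6 St3gal enzymes, which add 3-linked sialic acid, differed by at most 1.64-fold between populations. St3gal5, the synthase of the ganglioside GM3, was the most abundant per kb in every group but E17 endocardial, where St3gal1 (29.7 CPM per kb) and St3gal4 (24.4) stood above it (19.7). It held 48.4 to 55.5 CPM in E13 endocardial, 54.7 to 60.4 in E13 coronary, 50.5 and 52.6 in E17 endocardial and 55.5 and 58.2 CPM in E17 coronary libraries. The E13 groups overlapped, and the call of 0.16 ± 0.05 (adjusted p = 0.0198) was lost without E13 endocardial replicate 3 (0.058) or 4 (0.0596). St3gal6, which caps lactosamine chains, changed sides, from 21.0 to 24.1 against 14.5 to 17.1 CPM at E13 (-0.57 ± 0.07, adjusted p = 2.26e-05) to 20.5 and 18.6 against 29.7 and 30.3 CPM at E17 (0.62 ± 0.10, adjusted p = 0.000253). That change of 1.19 ± 0.12 passed (adjusted p = 2.07e-05). Of St3gal6 exon bases, 26.0% are shared with Dcbld2 on the opposite strand, and the library kit is not stated to mark strand. The same limit holds for B3gnt8 (18.1% shared with an opposite-strand gene), Chst15 (17.9%), B3gnt9 (16.5%) and St3gal4 (14.1%). St3gal1 and St3gal4, of O-glycans and of lactosamine chains, rose with stage in endocardial cells by 0.78 ± 0.07 and 0.71 ± 0.07. The coronary changes were 0.40 ± 0.07 for St3gal1 (adjusted p = 0.000637) and 0.12 ± 0.07 for St3gal4 (adjusted p = 0.178). St3gal4 differed between populations by -0.12 ± 0.06 at E13 (adjusted p = 0.0909; 0.0447 and 0.0448 without 1 or the other E17 endocardial library) and was lower in coronary cells at E17 (-0.71 ± 0.08, adjusted p = 1.19e-05). St3gal2 was higher in coronary cells at E13 (0.63 ± 0.08, adjusted p = 1.79e-05) and differed by 0.06 ± 0.11 at E17 (adjusted p = 0.668). St3gal3 was lower at E17 (-0.40 ± 0.14, adjusted p = 0.0256), a call lost without E17 coronary replicate 1 (0.182) or E17 endocardial replicate 2 (0.181). The summed St3gal level per kb was 70.2 ± 1.08 and 72.1 ± 1.78 CPM at E13 in endocardial and coronary cells (SD, n = 4 each), and 95.5 ± 5.56 and 78.1 ± 3.32 CPM at E17 (SD, n = 2 each).

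Between the stages, 14 of the 46 genes passed in endocardial and 28 in coronary cells. In endocardial libraries 11 of 46 rose (23.9%, against 16.2% of all genes) and 3 fell (6.52%, against 15.6%), with a median of 0.09 against 0 over all genes. The 3 that fell were B3gnt5, Chst2 and Hs6st1, and the call of Hs6st1 (-0.25 ± 0.07, adjusted p = 0.0132) was lost without E17 endocardial replicate 1 (0.155). Without that library 9 genes passed in place of 14, 1 of them lower, and without E17 endocardial replicate 2 only 7 rose in place of 11. In coronary libraries 13 rose (28.3%, against 24.6%) and 15 fell (32.6%, against 25.6%), with a median of -0.05 against -0.02. All 4 tested Hs3st and all 3 tested Hs6st genes were among those that fell, with St6gal1. Of the endocardial markers 6 of 7 fell in coronary libraries as well. Their sum was 1183.0 to 1579.5 CPM at E13 and 210.2 and 215.8 CPM at E17, and their part in these falls was not tested. The Hs6st2 fall (-0.85 ± 0.30, adjusted p = 0.0315) was lost without E17 coronary replicate 2 (0.236) or E13 coronary replicate 2 or 3 (0.0505 and 0.0584). The Hs3st3a1 fall (-1.62 ± 0.56, adjusted p = 0.029) was lost without E17 coronary replicate 2 (0.233) or E13 coronary replicate 2 (0.0641), and that of Hs6st3 (-3.40 ± 1.04, adjusted p = 0.016) without either E17 coronary library (0.0747 and 0.102). Those that rose included Chst1, Chst7, Chst15, B3gnt2, B3gnt3, Galnt10, Galnt15, Galnt18 and St3gal6. The population effect itself differed between the stages in 27 of 46, 11 toward coronary cells (23.9%, against 16.2% of all genes) and 16 toward endocardial cells (34.8%, against 16.5%). Without E17 endocardial replicate 2 the latter were 10 in place of 16. Whether coronary and endocardial cells differ in how many of these genes changed was not tested.

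Genes that supply or complete the same chains, from lists outside the symbol rule, gave mixed counts. Of 20 heparan sulfate assembly genes, 7 were higher and 8 lower in coronary cells at E13 (median -0.09), and 6 higher and 9 lower at E17 (median -0.17). Hs2st1, the 2-O-sulfotransferase, was lower at both stages (-0.86 ± 0.06, adjusted p = 1.67e-07, and -0.78 ± 0.09, adjusted p = 9.66e-06). The extracellular 6-O-endosulfatases Sulf1 and Sulf2 were higher at E13 (2.88 ± 0.13 and 1.36 ± 0.11), whereas at E17 Sulf1 differed by -0.06 ± 0.17 (adjusted p = 0.805) and Sulf2 was lower (-1.24 ± 0.16, adjusted p = 4.53e-05). Xylt1, which attaches the first sugar of the chain, was higher in coronary cells at both stages (2.91 ± 0.17 and 3.22 ± 0.24). Sulf2 was singled out after its values were seen. Of 9 chondroitin and dermatan assembly genes, 4 were higher and 3 lower at E13, and 3 higher and 3 lower at E17. Chsy1, which polymerises chondroitin, was higher (1.40 ± 0.09 and 0.38 ± 0.13), and Csgalnact1, which begins the chain, was lower (-1.20 ± 0.09 and -0.93 ± 0.12). Of 8 tested mucin-type extension genes of 11, 4 were higher and 3 lower at E13, and 2 higher and 5 lower at E17. St6galnac4 was higher at both stages (1.19 ± 0.08 and 2.03 ± 0.11) and St6galnac3 lower (-1.39 ± 0.08 and -1.89 ± 0.11), both sialyltransferases of O-glycans.

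Of 13 tested genes of 15 for sialic acid supply and other sialyltransferases, 5 were higher and 3 lower at E13, and 6 higher and 5 lower at E17. St8sia4, a polysialic acid synthase, stood at 1.3 CPM in endocardial against 38.9 CPM in coronary libraries at E13, and at 1.83 against 118.1 CPM at E17 (means; higher by log2 4.84 ± 0.26 and 6.02 ± 0.37). St8sia1, the GD3 synthase, stood at 123.2 against 17.1 CPM and at 33.7 against 1.92 CPM (-2.85 ± 0.13 and -4.15 ± 0.26). Of 14 tested lactosamine and fucose genes of 16, 4 were higher and 8 lower at E13, and 1 higher and 9 lower at E17. B4galt6, a lactosylceramide synthase, led the lower ones (-0.96 ± 0.07 and -2.21 ± 0.11), and B4gat1 was lower at both stages as well (-0.36 ± 0.06 and -0.98 ± 0.08). Of 24 tested acceptor core proteins of 25, 10 were higher and 10 lower at E13, and 9 higher and 10 lower at E17. Gpc4, a glypican, was higher at both stages (3.88 ± 0.18 and 4.03 ± 0.24) and the syndecan Sdc1 lower (-1.40 ± 0.12 and -2.67 ± 0.18), as was agrin, Agrn (-1.01 ± 0.06 and -0.73 ± 0.09). The basement membrane proteoglycan Hspg2 differed by 0.02 ± 0.08 at E13 (adjusted p = 0.837) and was higher in coronary cells at E17 (0.65 ± 0.11, adjusted p = 0.000281). Emcn, a sialomucin, was lower too (-1.71 ± 0.10 and -2.17 ± 0.14), but the gates used Emcn. For these lists the share of all genes called was 30.1% higher and 29.9% lower at E13, and 26.5% and 26.1% at E17.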

How the data were processed

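Bulk RNA-seq of 12 libraries was analysed: endocardial and coronary endothelial cells, 4 libraries each at E13 and 2 each at E17, grouped by their titles. The authors deposited RSEM expected counts per gene. CASAVA 1.8.2, cutadapt 1.3 and RSEM 1.2.3, with the genome GRCm38, are named per the submitters' processing notes, and the libraries were poly-A selected single reads, per the labels' protocols. RSEM divides reads that fit several genes by a model, which bears on overlapping genes, and 18.3% of the deposited values were not whole. Expected counts were rounded here.

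The 15171 genes kept by filterByExpr (minimum count 10, total 15) were fitted in edgeR 4.0.16 (R 4.3.3) with TMM scaling and 1 mean per group over all 12 libraries (8 residual degrees of freedom), so the groups share 1 estimate of spread. The quasi-likelihood test was adjusted over all tested genes, and the standard error is the log2 fold change divided by the root of F. Exon lengths and overlaps come from GENCODE vM21 (GRCm38). Intervals on count ratios are 95% exact and cover counting error only. The test script was checked on simulated data.

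The labels pair 1 endocardial with 1 coronary library in each batch. Deviations from the group means over 9481 genes correlated at 0.367 to 0.682 within the 4 E13 batches, against -0.508 to 0.439 between them. With 2 libraries per group, the E17 check gives 1 value (0.38). The labels name a shared batch, so it was taken as a pairing and fitted as a block in an alternative. Other alternatives were DESeq2 1.42.0, its size factors in edgeR, no filter, only the 2 groups compared and leaving out each library. Adding the reads of the read-through genes to Galnt2 and B3gnt2 was chosen after seeing the data.

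The genes and lists were chosen with earlier results of these data known. A gene was given its values by library if it passed with at least 2-fold change in 1 of the 4 two-group comparisons and reached a mean of 5 CPM, or was the most abundant of its family per kb (28 genes), and others by counts and ranges or where they complete a family. For the other pathway lists, genes among the 3 with the smallest adjusted p in a comparison were named, or the most abundant that did not pass.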

Additional observations from a re-analysis of the deposited data

Results flagged for a closer look

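In the E13 groups of 4 libraries, 2 of 56 gene and group combinations held 1 library far from the other three by Dixon's test, and chance flags about 1 in 20. Chst3 stood at 2.26 CPM in E13 endocardial replicate 3, below its group. Chst7 stood at 20.7 CPM in E13 coronary replicate 1, above its group.

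The population effect (coronary minus endocardial, log2) differed between E17 and E13 by edgeR's interaction test in 19 of the 28 genes of the naming rule. Most of these were chosen for a 2-fold difference, so that count is not comparable with all genes (16.2% toward coronary and 16.5% toward endocardial cells). Genes outside the rule passed too, among them St3gal6. For genes of the rule, the effect moved toward coronary cells for Galnt15 (5.01), Chst7 (1.47), Galnt18 (1.24), B3gnt3 (0.98), Chst15 (0.97), B3gnt2 (0.91), Chst2 (0.82), Galnt7 (0.73) and Galnt10 (0.62). It moved toward endocardial cells for Hs3st4 (-3.50), St6gal1 (-2.34), B3gnt9 (-2.11), Hs3st3b1 (-1.61), Hs3st1 (-1.50), Hs6st2 (-1.19), B3gnt5 (-0.91), Chst11 (-0.74) and Galnt1 (-0.40). The Galnt2 row alone gave -1.78 ± 0.62, and its sum with the overlapping read-through gene gave -0.58 ± 0.08 (edgeR adjusted p = 0.000195). The calls of B3gnt2, B3gnt5, Chst2, Chst11, Galnt2 and Hs6st2 were lost on 7 to 10 of 12 single-library omissions. For the Galnt2 row alone the adjusted p was 0.0461 and reached 0.169 without E17 coronary replicate 2, and it was kept only without E13 endocardial replicate 1 or E13 coronary replicate 4. Stage is tied to genotype, tamoxifen, gate and batch, so their parts cannot be told apart.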

How the results depend on the processing

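The number of the 46 genes passing was 33 at E13, 37 at E17, 14 between stages in endocardial cells, 28 in coronary cells and 27 for the stage difference. With DESeq2 it was 33, 37, 14, 28 and 27, but not of the same genes at E17. There DESeq2 lost Galnt14 (adjusted p = 0.0781) and gained Galnt5 (0.0325). With DESeq2's size factors in edgeR the number was 34, 38, 14, 28 and 26. Without the filter it was 35, 37, 13, 30 and 25, a count that takes in genes of the rule outside the 46. Leaving out 1 library gave 31 to 36, 33 to 38, 9 to 16, 22 to 29 and 19 to 26, and the 9 came without E17 endocardial replicate 1. With the batch as a replicate block it was 33 at E13, 34 at E17 and 22 for the stage difference, and it changed no call other than those given with the genes and that of Chst8 for the stage difference (adjusted p = 0.09). With only the 2 groups compared, 35, 34, 17 and 26 passed in the first 4, and genes falling in endocardial cells were 5 in place of 3. With the read-through counts added, chosen after seeing the data, 35, 37, 14, 29 and 27 passed.

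Of 2436 values of named genes under these alternatives, 2331 stayed on the same side of the threshold, 84 lost and 21 gained the call. None of the 2436 changed the direction of a call, and the sign of values that never passed was not followed. Each E17 group has 2 libraries, and ratios of genes with few counts in 1 group, such as Ndst3, have wide counting intervals.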
